A study of Homo sapiens with 2 samples.

Results

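A set of 8 regulators of epithelial and endodermal identity were followed in a human pancreatic cancer cell line with and without dihydroartemisinin (DHA). The genes were GRHL2, ELF3, OVOL1, OVOL2, FOXA2 and GATA6, which encode transcription factors, and ESRP1 and ESRP2, which encode splicing factors. They were chosen by gene symbol, as regulators of epithelial and pancreatic ductal identity, with earlier results of these data known. All 8 were found among the 58735 genes of the deposited count table. The DHA group was 1 library of DHA-treated cells of a highly metastatic derivative of SUIT-2, a pancreatic adenocarcinoma line, and the untreated group was 1 library of the same cells labelled NC. DHA is an antimalarial of the artemisinin group. The sources used here do not state its dose, the exposure time or any vehicle. With 1 library per group, no difference below has a replicate check and no p-value was computed.

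Epithelial cells keep their character through a network of factors. GRHL2, a grainyhead factor, and ELF3, an epithelial ETS factor, act on genes of cell junctions and the epithelial surface. OVOL1 and OVOL2 are zinc finger repressors that hold back mesenchymal regulators such as ZEB1, while ESRP1 and ESRP2 direct the epithelial splice forms of genes such as FGFR2 and CD44. FOXA2 and GATA6 act earlier in development: FOXA2 is a pioneer factor of the endoderm, and GATA6 is needed for pancreas formation and marks the classical subtype of pancreatic cancer.

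The DHA library held 14521101 counted reads and the untreated library 15452609. A count of 0 in a library allows up to 3 reads, which is 0.206 CPM (counts scaled to library size) in the DHA library and 0.195 CPM in the untreated library. The 10 ductal epithelial marker genes summed to 1438 CPM in the DHA library and 3540 CPM in the untreated library, and all 10 had reads in both. The keratin gene KRT8 led them, with 11840 reads in the DHA library and 29850 in the untreated library. By the rule given below, 7 of the 9 ductal markers with at least 50 reads were called lower and 0 higher. Over all genes 10.3% were lower and 6.72% higher. The extraction protocol names retina, but 5 of 8 retina markers had 0 reads in both libraries. Among the other 3, OPN1SW had the most, with 49 reads in the DHA library and 61 in the untreated library. Of the 5 blood cell markers, PTPRC, CD3E, MS4A1 and CD68 had 0 reads in both libraries, and CD14 had 8 reads in the DHA library and 11 in the untreated library. CD68 shares 81.7% of its exon length with another gene on the same strand, so its 0 may depend on how shared reads were counted. Fibroblast markers summed to 0.960 CPM in the DHA library and 8.51 CPM in the untreated library, with COL1A2 and DCN at 0 in both. COL1A1 had 11 reads in the DHA library and 83 in the untreated library, and was called lower by the rule given below. In the same order PDGFRB had 2 and 26 reads, LUM 1 and 21, and PDGFRA 0 and 1. Endothelial markers summed to 4.53 CPM in the DHA library and 18.3 CPM in the untreated library, with CDH5 at 0 in both. PECAM1 held 54 of their 66 reads in the DHA library and 280 of 281 in the untreated library, and was also called lower. KDR had 9 reads in the DHA library and 0 in the untreated library. The part of these shifts in the results was not tested. In bulk RNA, fewer cells that express a gene and less of its RNA per cell cannot be told apart.

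The epithelial factor genes GRHL2 and ELF3 and both splicing factor genes were lower in the DHA library, whereas the endodermal factor genes differed by less than 2-fold. GRHL2, ELF3, ESRP1 and ESRP2 were 31.0-fold, 8.48-fold, 5.85-fold and 3.53-fold lower. FOXA2 and GATA6 had log2 ratios of -0.17 and -0.10, and both OVOL genes were counted by few reads. A call of lower or higher needed a minimum of 50 reads in either library, a difference of at least 2-fold and a 95% exact counting interval that excluded a ratio of 1. Of the 8 regulators, 6 had that many reads. Of these 6, 4 were called lower and 0 higher, against 10.3% of all 12064 such genes called lower and 6.72% called higher. Because the regulators were chosen with earlier results of these data known, these shares are background and test nothing. GRHL2 and ESRP1 reached 50 reads only in the untreated library. At a 4-fold threshold GRHL2, ELF3 and ESRP1 were called lower and 0 higher, against 2.82% lower and 0.912% higher among all genes. The median log2 ratio (DHA over untreated) of the 6 was -2.18, and over all 12064 genes it was 0.04. Intervals cover counting error only, not variation between cultures.

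**Figure D1:**
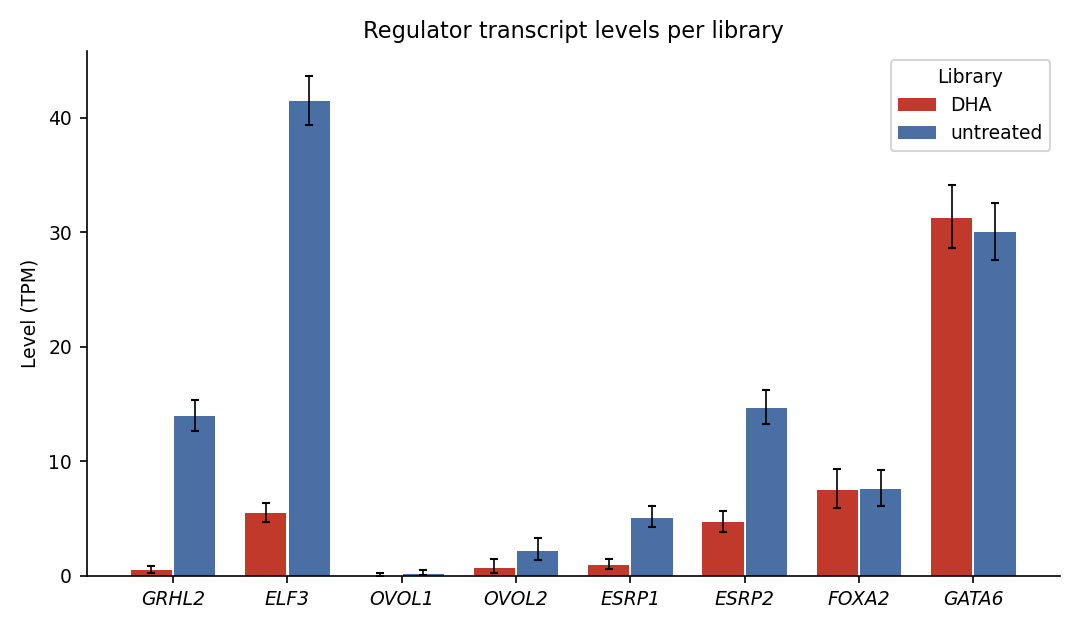
Transcript level in TPM (a level adjusted for gene length and library size) of the 8 regulators, with the DHA library in red and the untreated library in blue. Bars are single libraries and whiskers are 95% exact Poisson intervals of the counts. ELF3, GRHL2, ESRP2 and ESRP1 are lower in the DHA library, and GATA6 and FOXA2 stand at similar heights in both.

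Per unit of length, the order of the regulators differed between the libraries. In the DHA library GATA6 led with 31.3 TPM, followed by FOXA2 with 7.50, ELF3 with 5.46 and ESRP2 with 4.65 TPM. ESRP1 with 0.951, OVOL2 with 0.673 and GRHL2 with 0.483 TPM came next, and OVOL1 was at 0. The counting intervals of FOXA2 and ELF3, of ELF3 and ESRP2, and of ESRP1, OVOL2 and GRHL2 overlapped. In the untreated library ELF3 led with 41.5 TPM, followed by GATA6 with 30.02, ESRP2 with 14.7, GRHL2 with 13.9 and FOXA2 with 7.53 TPM. ESRP1 with 5.08, OVOL2 with 2.18 and OVOL1 with 0.161 TPM came last. The intervals of ESRP2 and GRHL2 overlapped there. GRHL2 stood below FOXA2 in the DHA library and above it in the untreated library.

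GRHL2 (ENSG00000083307, GRCh38 chromosome 8, 101492432 to 101669726, plus strand) had 12 reads in the DHA library, against 409 in the untreated library. Scaled, this was 0.823 CPM in the DHA library and 26.6 CPM in the untreated library, a 31.0-fold lower level with a counting interval of 18.3 to 63.0. Among the 12064 genes with at least 50 reads, GRHL2 had the 16th lowest ratio. Among the 932 of these that the deposited table assigns to a transcription factor family, its ratio was the second lowest. In that group, 7.51% of genes were called lower and 8.48% higher.

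The relatives of GRHL2 did not follow it. GRHL1, a grainyhead factor of the epidermis, had 92 reads in the DHA library and 42 in the untreated library, 2.30-fold higher (1.59 to 3.42). GRHL3, the third grainyhead gene, had 1 read in the DHA library and 0 in the untreated library. GRHL1 held 83.8% of the summed TPM of the 3 GRHL genes in the DHA library, against 7.26% in the untreated library. That sum was 3.37 TPM in the DHA library and 15.02 TPM in the untreated library, so the gain in GRHL1 was smaller than the loss in GRHL2. The more distant relatives TFCP2, TFCP2L1 and UBP1 had log2 ratios of 0.11, 0.47 and 0.20 and were not called.

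**Figure D2:**
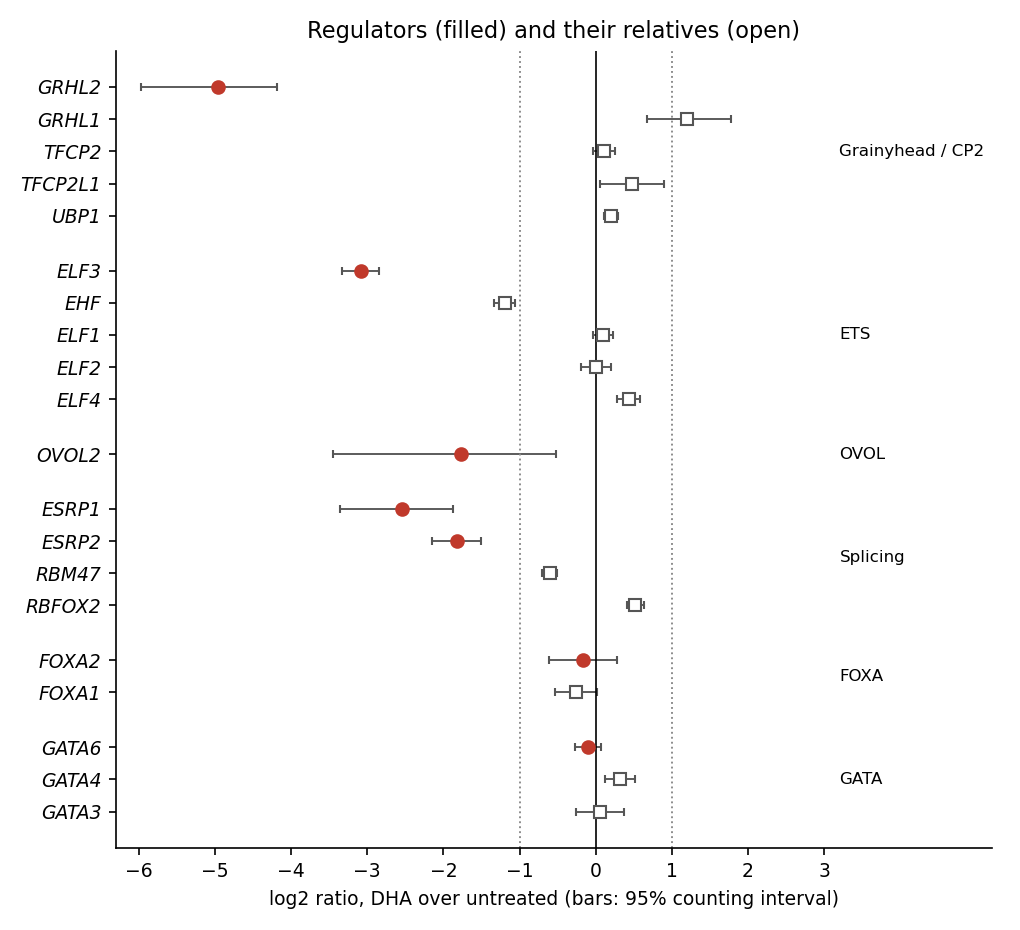
Log2 ratio of the DHA over the untreated library for 7 regulators (filled circles) and their relatives with at least 50 reads (open squares). Whiskers are 95% counting intervals and dotted lines mark 2-fold. GRHL2, at -4.96, and GRHL1, at 1.20, lie on opposite sides of 0. ELF3 and EHF lie below -1, and the FOXA and GATA genes cluster around 0. OVOL2, drawn for its interval, had fewer than 50 reads, and OVOL1 is not drawn.

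ELF3 (ENSG00000163435, GRCh38 chromosome 1, 202007945 to 202017188, plus strand) had 161 reads in the DHA library, against 1446 in the untreated library. It was 8.48-fold lower (7.22 to 10.1), with the sixth lowest ratio among the 932 transcription factor genes. EHF, the other epithelial ETS factor with many reads, had 606 reads in the DHA library and 1464 in the untreated library. EHF was 2.29-fold lower (2.08 to 2.52), an interval that does not overlap that of ELF3. Of the reads of this pair, EHF took 79.01% (76.0 to 81.8) in the DHA library and 50.3% (48.5 to 52.1) in the untreated library. The related SPDEF had 1 read in the DHA library and 13 in the untreated library, and ELF5 had 0 in both. The broadly expressed ETS genes ELF1, ELF2 and ELF4 had log2 ratios of 0.10, 0.00 and 0.43. Of the 17 ETS family genes with at least 50 reads, 3 were called lower and 0 higher, and their median log2 ratio was 0.40. Among the 932 transcription factor genes, 7.51% were called lower and 8.48% higher.

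ELF3 shares 18.5% of its exon length with other annotated genes on either strand, among them its antisense gene ELF3-AS1. ELF3-AS1 had 31 reads in the DHA library and 55 in the untreated library, a log2 ratio of -0.74 that did not reach 2-fold. The sources used here do not say whether reads were counted by strand.

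Promoter windows of 300 bases from RefSeq (GRCh38.p14) were at hand for 2 of the 8 genes, ELF3, which fell, and GATA6, which was not called. They are shown for that contrast. Both windows were searched on both strands for 6 motifs, whose shares are given over the 35116 promoters of the table. The grainyhead motif AACNGGTT occurs in 1.73% of promoters. The OVOL motif CCGTTA occurs in 3.07% and the ETS motif AGGAAG in 33.6%. The forkhead motif TGTTTNC occurs in 18% and the GATA factor motif AGATAA in 10.3%. The E-box CAGGTG, read by SNAI and ZEB repressors, occurs in 20.6%. The only match in the 2 windows was 1 E-box, in that of ELF3, at 120 bases before the RefSeq start, so no motif overlapped another. That start differs from the GENCODE start of ELF3 given above, and the whole window lies within the GENCODE span of the gene. In the ELF3 stretch (chr1:202010455-202010484, plus strand) capitals mark the E-box, and the GATA6 stretch (chr18:22169339-22169442, plus strand), which lies before the first annotated exon, holds no match.
ELF3: gaatatgcaaatCACCTGgggccaggagcc
GATA6: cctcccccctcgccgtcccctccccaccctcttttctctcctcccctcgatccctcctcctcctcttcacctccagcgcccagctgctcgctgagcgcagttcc
These matches describe letters and are not evidence of binding.

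Few reads covered the OVOL repressors. OVOL2 (ENSG00000125850, GRCh38 chromosome 20, 17956979 to 18059188, minus strand) was covered by 6 reads in the DHA library, against 23 in the untreated library. Its ratio was 3.42-fold lower with a wide interval of 1.44 to 10.9, and it fell under the minimum of 50 reads. With a minimum of 10 reads it was called lower, as were 13.6% of the 15616 genes then tested, while 8.31% were called higher. OVOL1 (ENSG00000172818, GRCh38 chromosome 11, 65787022 to 65797219, plus strand) had 0 reads in the DHA library and 3 in the untreated library. Both counts are within the limit that a count of 0 allows, so no difference was detectable at this depth. OVOL3 had 3 reads in the DHA library and 0 in the untreated library.

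Both epithelial splicing factor genes fell. ESRP1 (ENSG00000104413, GRCh38 chromosome 8, 94641074 to 94707466, plus strand) had 19 reads in the DHA library, against 120 in the untreated library, 5.85-fold lower (3.67 to 10.3). ESRP2 (ENSG00000103067, GRCh38 chromosome 16, 68229111 to 68238102, minus strand) was covered by 106 reads in the DHA library, against 396 in the untreated library, 3.53-fold lower (2.85 to 4.43). The intervals of the 2 ratios overlapped. ESRP1 took 15.2% (9.41 to 22.7) of the reads of the pair in the DHA library and 23.3% (19.7 to 27.1) in the untreated library, and these exact binomial intervals also overlapped. ESRP2 was thus the larger part of the pair in each library, and the summed level of both was 5.60 TPM in the DHA library and 19.8 TPM in the untreated library.

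RBM47, another RNA-binding protein of epithelial splicing, had a log2 ratio of -0.60, and RBFOX2, which favours mesenchymal splice forms, had 0.52. Neither reached 2-fold. Of 12 other splicing factors linked to epithelial or mesenchymal splicing with at least 50 reads, 1 was called lower and 1 higher, against 10.3% lower and 6.72% higher among all genes. Their median log2 ratio was -0.12. MBNL3, a muscleblind factor, had 49 reads in the DHA library and 249 in the untreated library, 4.77-fold lower. KHDRBS3, a STAR family RNA-binding protein, had 498 reads in the DHA library and 177 in the untreated library, 2.97-fold higher. MBNL2 and RBM24, next in size, had log2 ratios of 0.66 and -0.58.

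Of 15 genes with at least 50 reads whose transcripts ESRP proteins splice, 0 were called lower and 1 higher, beside shares of 10.3% lower and 6.72% higher over all genes. The median log2 ratio of the 15 was 0.13. UAP1, an enzyme of nucleotide sugar synthesis, was 2.63-fold higher (2.45 to 2.82). KIF13A, ARHGEF11 and PLEKHA1 had log2 ratios of 0.84, 0.83 and -0.68. CD44 had 15379 reads in the DHA library and 19728 in the untreated library, and FGFR2 had 5 in the DHA library and 0 in the untreated library. Counts per gene do not separate splice forms, so the ratio of epithelial to mesenchymal isoforms was not measured.

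**Figure D3:**
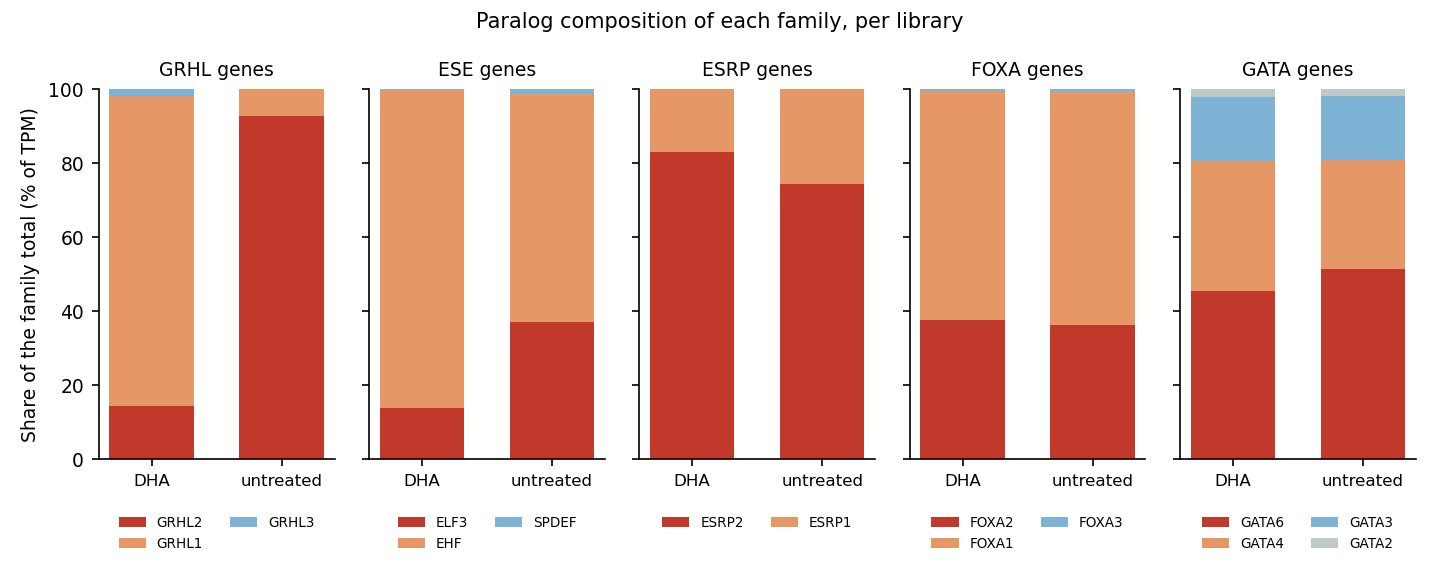
Share of each family's summed TPM held by each gene, with the DHA library left of the untreated library. GRHL1 takes 83.8% in the DHA library and 7.26% in the untreated library. EHF likewise takes a larger share in the DHA library, and the FOXA and GATA shares are similar in both. ESE stands for the epithelial ETS genes ELF3, EHF, ELF5 and SPDEF.

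The endodermal factors differed little between the libraries. GATA6 (ENSG00000141448, GRCh38 chromosome 18, 22169443 to 22202528, plus strand) had 506 reads in the DHA library, against 574 in the untreated library. Its ratio was 0.931 with an interval of 0.824 to 1.05. FOXA2 (ENSG00000125798, GRCh38 chromosome 20, 22581005 to 22585455, minus strand) was covered by 80 reads in the DHA library, against 95 in the untreated library, a ratio of 0.890 (0.652 to 1.21). Both intervals lie within 2-fold of 1 and neither overlaps the interval of GRHL2, ELF3, ESRP1 or ESRP2.

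The paralogs of both genes were also near 0 on the log2 scale. FOXA1, which shares much of its function with FOXA2, had -0.26, GATA4, the partner of GATA6 in the early pancreas, had 0.32, and GATA3 had 0.05. FOXA2 held 37.7% of the summed FOXA level in the DHA library and 36.2% in the untreated library. GATA6 held 45.6% of the summed GATA level in the DHA library and 51.4% in the untreated library. Of the 9 GATA-type zinc finger genes with at least 50 reads, 0 were called in either direction. Of 20 forkhead genes, 1 was called lower and 4 higher. Shares over all 932 transcription factor genes with that many reads were 7.51% lower and 8.48% higher.

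Other factors of pancreas and endoderm formed a graded set. Of 13 with at least 50 reads, 4 were called lower and 1 higher, where all genes gave 10.3% lower and 6.72% higher. The median log2 ratio was -0.53. The lower genes were ONECUT3 at -1.96 (12 reads in the DHA library and 51 in the untreated library), NR5A2 at -1.21, ONECUT2 at -1.06 and PDX1 at -1.02. NR5A2 is a nuclear receptor of pancreatic and liver genes, and PDX1 is the master factor of pancreas formation. PROX1, a homeobox factor of liver and pancreas development, was 2.13-fold higher, at 71 reads in the DHA library and 35 in the untreated library. The nuclear receptor gene HNF4A had a log2 ratio of -0.29, and SOX9, the ductal progenitor factor, had -0.66. PDX1, HNF4A and SOX9 were named after their values had been seen.

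Of 7 other epithelial factors with at least 50 reads, 0 were called lower and 1 higher, with a median log2 ratio of -0.32. Among all genes these shares were 10.3% and 6.72%. KLF4, a Krüppel-like factor of epithelial differentiation, had 544 reads in the DHA library and 217 in the untreated library, 2.64-fold higher (2.26 to 3.11). MECOM, TFAP2C and TFAP2A had log2 ratios of -0.94, 0.88 and -0.71. With upper-quartile scaling MECOM reached -1.01 and was called lower.

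Genes linked to GRHL2 in epithelia were split. Of 14 with at least 50 reads, 8 were called lower and 0 higher, with a median log2 ratio of -1.15, beside 10.3% lower among all genes. The E-cadherin gene CDH1 had 23 reads in the DHA library, against 933 in the untreated library, 37.6-fold lower (25.4 to 60.9). EPCAM, which encodes an epithelial adhesion molecule, was 5.30-fold lower and MAL2, a gene of apical membrane transport, 4.92-fold. MAL2 had 15 reads in the DHA library and 80 in the untreated library. ST14, which encodes the membrane protease matriptase, was 4.67-fold lower, and its inhibitor genes SPINT1 and SPINT2 were 2.23-fold and 2.28-fold lower. ERBB3 was 2.21-fold lower.

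The other 6 were not called, and 3 of them had ratios above 1. CLDN4, a tight junction claudin, had 1613 reads in the DHA library and 1528 in the untreated library. DSP, which encodes desmoplakin, had 932 and LSR, a tricellular junction gene, 560 reads in the DHA library, against 786 for DSP and 571 for LSR in the untreated library. The log2 ratio of LSR was 0.05, and its interval (-0.12 to 0.22) included 0. LAMA3, MARVELD2 and CLDN3 had log2 ratios of -0.07, -0.26 and -0.89. The lists of linked genes were chosen with earlier results of these data known.

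**Figure D4:**
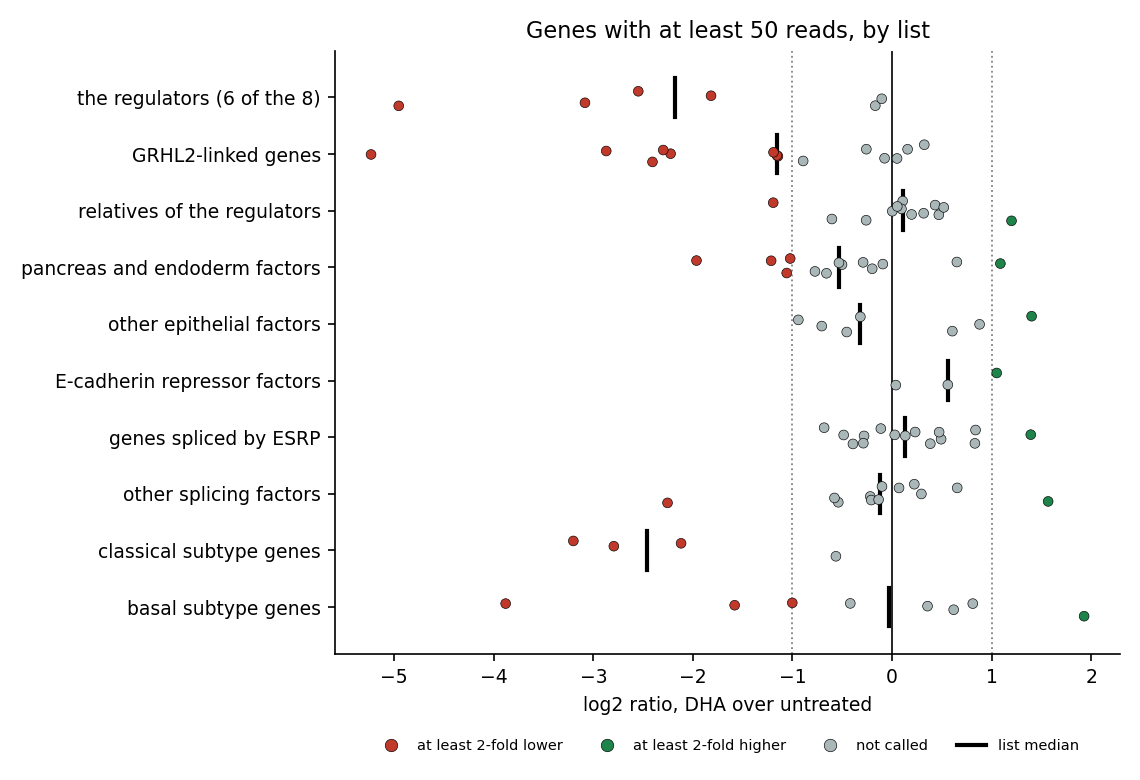
Log2 ratio of the DHA over the untreated library for each gene with at least 50 reads, by list, with red for genes called lower, green for genes called higher and a black bar at the list median. The regulators (median -2.18) and the GRHL2-linked genes (-1.15) lie mostly left of 0. So do the classical subtype genes (-2.46, 4 genes) and the pancreas and endoderm factors (-0.53). The relatives of the regulators (0.11) and the genes spliced by ESRP (0.13) centre near 0. The list labelled E-cadherin repressor factors also includes other mesenchymal regulators. Points are spread up and down at random within a list for legibility.

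Repressors of E-cadherin and other mesenchymal regulators oppose GRHL2 and the OVOL genes. Of 12 genes of these kinds, 3 had at least 50 reads, with a median log2 ratio of 0.56. Of the 3, 0 were called lower and 1 higher, against 10.3% lower and 6.72% higher among all genes. SNAI2 had 132 reads in the DHA library and 67 in the untreated library, 2.07-fold higher (1.54 to 2.84), but with upper-quartile scaling its log2 ratio was 0.99 and it was not called. ZEB1 had 665 reads in the DHA library and 476 in the untreated library, a log2 ratio of 0.56 that was not called, and TCF3 had 0.04. TWIST1, TWIST2 and PRRX1 had 0 reads in both libraries. The genes of the miR-200 microRNAs, which target ZEB1, had 5 reads in the DHA library and 0 in the untreated library in sum, so they could not be compared.

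GATA6, with its ratio of 0.931, marks the classical subtype of pancreatic cancer. Of 24 other classical genes, only 4 had at least 50 reads, and 3 of these were called lower and 0 higher, against 10.3% lower and 6.72% higher among all genes. With a minimum of 10 reads 4 were called lower and 2 higher, where 13.6% of all 15616 genes were lower and 8.31% higher. With a minimum of 1 read 5 were lower and 3 higher. No share over all genes is at hand for that minimum, so these counts have no background. They include TFF2, with 0 reads in the DHA library and 8 in the untreated library. They also include PLA2G10, with 6 reads in the DHA library and 0 in the untreated library. The tetraspanin gene TSPAN8 was 9.20-fold lower, CLRN3 6.94-fold and the galectin gene LGALS4 4.34-fold, and CDH17 had a log2 ratio of -0.56. CLRN3 had 21 reads in the DHA library and 157 in the untreated library. ANXA10, just under the read minimum and named after its values had been seen, had 48 reads in the DHA library and 0 in the untreated library. Of 25 basal subtype genes, 8 had at least 50 reads, with 3 called lower, 1 higher and a median of -0.03. TNS4, a focal adhesion gene, had 12 reads in the DHA library and 194 in the untreated library, 14.7-fold lower (8.57 to 30.1). FGFBP1, with 31 reads in the DHA library and 99 in the untreated library, was 2.99-fold lower. The keratin gene KRT15, with 142 reads in the DHA library and 39 in the untreated library, was 3.81-fold higher. Each of these genes reached 50 reads only in the library where it was higher. S100A2, at 2.002-fold lower, was called only narrowly, with a log2 ratio of -0.99 when scaled by total reads.

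Position was not used to choose the regulators. Within 100 kb of them lay 91 annotated genes, of which 22 had at least 50 reads, with 2 called lower and 3 higher. Shares over all genes were 10.3% lower and 6.72% higher. The 2 that fell were NCALD, the one such neighbour of GRHL2, and KAT14, near OVOL2. NCALD, which encodes the calcium-binding protein neurocalcin delta, lies 16816 bases beyond the end of GRHL2 on the opposite strand. The starts of NCALD and GRHL2 are 632 kb apart. NCALD had 19 reads in the DHA library, against 357 in the untreated library, 17.4-fold lower, with a log2 ratio of -4.12. On chromosome 8 as a whole, 10.4% of 424 genes with at least 50 reads were called lower and 7.31% higher. ESRP1 lies 6.78 Mb from GRHL2 on the same chromosome, and of the 32 such genes between them 3 were called lower and 1 higher.

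Around ELF3, ESRP1 and ESRP2, which were called lower, 0 neighbours were. Next to ELF3, the aminopeptidase gene RNPEP and the mitochondrial import gene TIMM17A had log2 ratios of -0.55 and 0.26. Beside ESRP1, the genes VIRMA and DPY19L4 had 0.09 and -0.21. Of 5 neighbours of ESRP2, 0 were lower and PLA2G15, which encodes a lysosomal phospholipase, was 2.04-fold higher, though under 2-fold with DESeq2 (log2 ratio 0.99) and upper-quartile scaling (0.97). Around OVOL2, KAT14 was 2.09-fold lower, and SNX5 and MGME1 had -0.76 and 0.01. Of 8 neighbours of OVOL1, the AP-1 gene FOSL1 was 3.82-fold higher and CCDC85B 2.21-fold higher. The 5 genes around FOXA2, the long non-coding RNA LINC00261 among them, had 0 reads in both libraries. GATA6-AS1, which overlaps GATA6 on the opposite strand, had 6 reads in the DHA library and 18 in the untreated library.

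**Figure D5:**
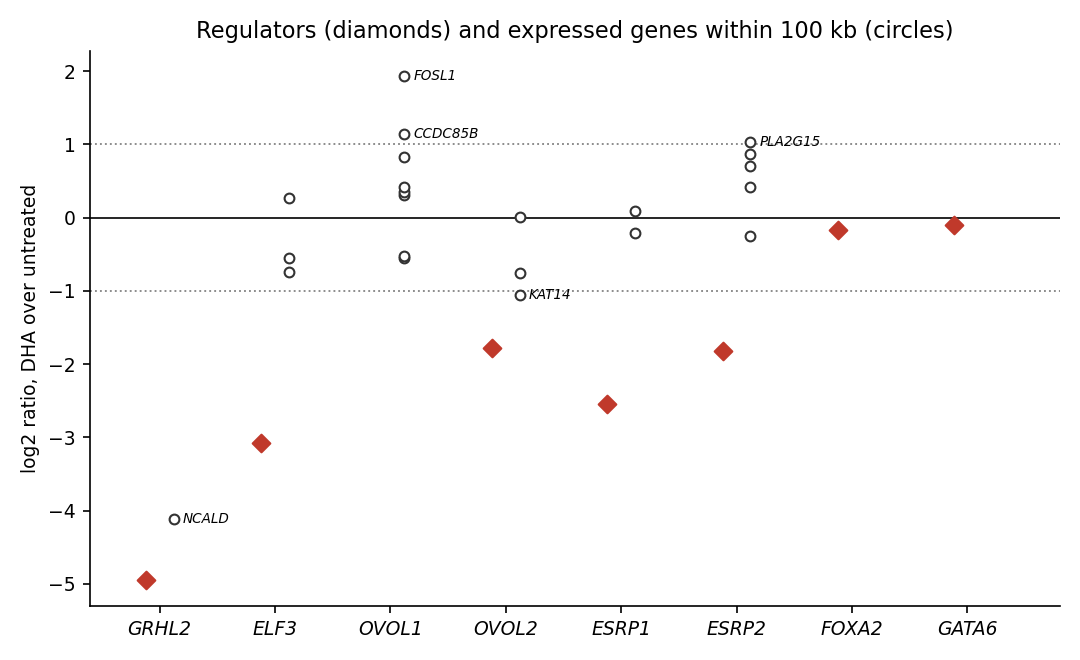
Log2 ratio of the DHA over the untreated library for each regulator (red diamonds) and for genes within 100 kb with at least 50 reads (open circles). Neighbours called lower or higher are named and dotted lines mark 2-fold. Only GRHL2, at -4.96, has a neighbour of similar ratio among the regulators called lower, NCALD at -4.12. OVOL1 has no diamond because it had 3 reads in all, and OVOL2 is drawn from 29 reads.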

How the data were processed

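RNA was harvested with Trizol and sequenced from Illumina sample-prep libraries, per the labels' protocols. The deposited table holds raw counts of reads per gene for both libraries, with gene lengths and coordinates. The sources used here do not state the aligner, the counter or the use of strand. The submitters' processing notes name a mouse genome build, but all 58735 gene rows matched GENCODE 29 on human GRCh38 in start, end and exon length.

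Counts were scaled by TMM (edgeR 4.0.16, R 4.3.3; factors of 1.004 in the DHA and 0.996 in the untreated library). The log2 ratio of DHA over untreated was taken after adding 0.5 reads, with a 95% Clopper-Pearson counting interval. PCR copies are not independent molecules, so intervals and floors cover counting error only. TPM came from counts and deposited lengths. The code was tested on simulated data.

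The members, lists and size rule were chosen with earlier results of these data known. Named were all members, relatives and neighbours with at least 50 reads, and up to 4 genes per list with the largest absolute log2 ratio. Others were chosen after their values were seen. Alternatives covered scaling (total reads, DESeq2 1.42.0, upper quartile, without mitochondrial genes), read minimum, pseudocount, fold and interval. A few genes that the naming rule covers are not reported here.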

Additional observations from a re-analysis of the deposited data

How the results depend on the processing

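Of the 8 regulators, 3 to 5 were called lower and 0 higher under every alternative tried. The count was 3 with a 4-fold threshold, where ESRP2 was lost, and 3 with a minimum of 200 reads, where ESRP1 was lost. It was 5 with a minimum of 10 reads or of 1 read, where OVOL2 was added. Among all genes 2.82% were called lower with a 4-fold threshold and 13.6% with a minimum of 10 reads. No share over all genes is at hand for a minimum of 200 reads or of 1 read. The median log2 ratio of the regulators ranged from -2.45 to -1.82, and the read minimum changed which regulators entered it. FOXA2, with 80 reads in the DHA library and 95 in the untreated library, did not enter it with a minimum of 200 reads. The log2 ratio of GRHL2 ranged from -5.02 to -4.80, that of ELF3 from -3.15 to -3.07, that of ESRP1 from -2.61 to -2.46 and that of ESRP2 from -1.88 to -1.80. GATA6 stayed between -0.17 and -0.09 and FOXA2 between -0.23 and -0.16. Of 240 list counts under an alternative, 39 moved by over 1.5 times. With a 4-fold threshold 5 of the 14 GRHL2-linked genes were called lower and 0 higher. Among all genes 2.82% were lower and 0.912% higher at that threshold. No paired analysis was possible because each group is 1 library. Depth limits OVOL1 and OVOL2 most, and variation between cultures was not measured.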
